A study of Mus musculus with 6 samples.

Results

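Integrin transcripts were examined in T cells sorted from B16-F10 melanomas. Integrins are surface receptors made of an alpha and a beta chain, and a chain reaches the membrane only with a partner. In T cells the beta 2 pairs, such as LFA-1, hold the cell to other cells, the beta 1 pairs hold it to extracellular matrix, and the alpha 4 and beta 7 chains take part in homing and in retention at epithelia. Transcripts of single chains therefore say which pairs a cell could form, and not which pairs are on its surface. The genes described are the 8 rows of the count table named Itgae, Itgax, Itga2, Itga4, Itgal, Itgb1, Itgb2 and Itgb7, out of 14597 genes in all. They were chosen by name, with earlier results of these data known, as 5 alpha chains and 3 beta chains out of 23 integrin subunit genes in the table.

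The study sorted TCRβ+ T cells from subcutaneous tumors. The mice received either PBS (3 samples) or DTx, diphtheria toxin (3 samples). All 6 samples carried the Foxp3-EGFP-DTR genotype, in which the toxin receptor follows expression of Foxp3, so that the toxin acts on Treg cells. The labels give neither the age nor the number of animals behind a sample. The table names 6 libraries, called library 1 to library 6 here, and no label ties a library to a sample. No cell was assigned to PBS or DTx, the pool was treated as 1 sample, and no test of a treatment or of a cell type was made. Intervals in brackets are 95% intervals for counting error only.

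The pool held 12818 cells and 21816565 unique molecular identifiers (UMIs, each standing for 1 captured RNA molecule), between 1916305 and 5127776 per library, and median depth per cell ran from 610 UMIs in library 3 to 2500 in library 4. CD4+ Tconv cells were taken as cells with a Cd4 UMI and none of Cd8a, Cd8b1 or Foxp3 (1205 cells, between 123 and 305 per library). CD8+ cells had a Cd8a or Cd8b1 UMI and none of Cd4 or Foxp3 (4497 cells, between 402 and 891 per library). Foxp3+ cells had a Foxp3 UMI and no Cd8 UMI (97 cells, of which 49, 30 and 17 came from libraries 1, 2 and 3 and 1 from library 6). Of the Foxp3+ cells, 20 had 2 or more Foxp3 UMIs. The CD4+ Tconv gate can therefore hold Treg cells whose Foxp3 transcript was not captured, also in the Foxp3+ and Ccr8 comparisons. Their number is not known. Cells with both Cd4 and Cd8 UMIs (168) had a median depth of 4234 UMIs and entered no gate, and no doublet caller was run. No gating UMI was found in 6838 cells (53.3%), at a median depth of 956.5 UMIs, and these entered no gate either. Cells of the gates held from 55.8% (Itgae) to 88.9% (Itgax) of the UMIs of a member. A T cell marker, out of Cd3e, Cd3d, Cd3g, Trac, Trbc1 and Trbc2, was found in 95.4% of cells, and in 97.4% to 99.5% of the cells with a UMI of each member. A further 76 barcodes occurred in 2 libraries each, and leaving those cells out moved the tested member ratios by up to 0.05 and the partner pairs by up to 0.02 on the log2 scale.

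The alpha chain genes lie on 4 chromosomes of the GRCm38 build and are all protein coding. Itgae (ENSMUSG00000005947.11, alpha E or CD103, which binds E-cadherin together with beta 7) lies on chromosome 11 from 73090583 to 73147446, plus strand. Itgax (ENSMUSG00000030789.9, alpha X or CD11c, best known from dendritic cells) lies on chromosome 7 from 128129547 to 128150657, plus strand, and Itgal (ENSMUSG00000030830.18, alpha L of LFA-1) lies on the same chromosome from 127296260 to 127335138, plus strand. Itga2 (ENSMUSG00000015533.9, alpha 2 or CD49b, a collagen receptor chain) lies on chromosome 13 from 114833081 to 114932100, minus strand. Itga4 (ENSMUSG00000027009.18, alpha 4, which pairs with beta 1 or beta 7) lies on chromosome 2 from 79255426 to 79333123, plus strand. Among the beta chain genes, Itgb1 (ENSMUSG00000025809.15) lies on chromosome 8 from 128685654 to 128733200, plus strand, Itgb2 (ENSMUSG00000000290.13) on chromosome 10 from 77530252 to 77565708, plus strand, and Itgb7 (ENSMUSG00000001281.10) on chromosome 15 from 102215995 to 102231944, minus strand. Haspin lies on the opposite strand within Itgae and had 114 UMIs of its own, and Cerkl overlaps Itga4 on the opposite strand and had 53. The strand setting of the counting was not given in the sources used here, so reads of these neighbours cannot be told apart from those of Itgae and Itga4 if strand was ignored.

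RefSeq promoter windows matched 5 of the 8 members. The 250 bases before the RefSeq gene start, which for Itgax lies slightly downstream of the start given above, are shown for the 3 members with the most UMIs among those that differed most between CD8+ and CD4+ Tconv cells, described below in that comparison. All 3 are on the plus strand of GRCm38.p6, at chr7:128129300-128129549 for Itgax, chr2:79255176-79255425 for Itga4 and chr8:128685404-128685653 for Itgb1. Capitals mark letters of a searched motif on either strand, which were TGTGGT (RUNX), GGGCGG (GC box) and CGGAAG (ETS).
Itgax: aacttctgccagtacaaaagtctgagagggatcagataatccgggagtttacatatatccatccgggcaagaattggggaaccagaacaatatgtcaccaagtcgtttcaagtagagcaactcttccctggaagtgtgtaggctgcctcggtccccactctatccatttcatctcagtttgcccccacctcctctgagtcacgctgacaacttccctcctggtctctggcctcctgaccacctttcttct
Itga4: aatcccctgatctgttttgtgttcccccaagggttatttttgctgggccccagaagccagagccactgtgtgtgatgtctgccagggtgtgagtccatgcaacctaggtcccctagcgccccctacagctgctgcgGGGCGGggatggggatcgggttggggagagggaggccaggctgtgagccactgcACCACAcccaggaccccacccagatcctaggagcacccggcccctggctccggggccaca
Itgb1: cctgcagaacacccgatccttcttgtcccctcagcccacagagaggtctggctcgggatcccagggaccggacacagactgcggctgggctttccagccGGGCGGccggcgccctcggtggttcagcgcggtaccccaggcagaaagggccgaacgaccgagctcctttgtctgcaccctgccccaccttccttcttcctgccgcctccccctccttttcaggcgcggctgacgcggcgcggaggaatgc
The Itgb1 window was 68% G and C with 21 CpG, against medians of 52.4% and 6 over 32851 windows of the same length. The Itgax window was 50% G and C with 5 CpG, and the Itga4 window 64% with 6. GGGCGG occurred once each in the Itga4 and Itgb1 windows and in 32.7% of all windows. TGTGGT occurred once in the Itga4 window, read there on the opposite strand as ACCACA, and in 14.0% of all windows. CGGAAG was in none of the 5 member windows and in 13.6% of all. The motifs did not overlap one another, and a match of letters is not a binding site.

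Itgb1 was found in the most cells of the 8 members. A UMI of Itgb1, the beta 1 chain shared by many alpha chains, was found in 4075 of 12818 cells, or 31.8% (31.0 to 32.6), with 10080 UMIs in all. Itgb2, the beta chain of LFA-1 and partner of CD11c, was found in 21.8% of cells (21.1 to 22.5) and Itgb7 in 21.6% (20.9 to 22.4). Among the alpha chains, Itgal was found in 16.5% (15.9 to 17.2), Itga4 in 12% (11.4 to 12.5), Itgax in 3.25% (2.95 to 3.57), Itgae in 2.28% (2.03 to 2.55) and Itga2 in 0.874% (0.720 to 1.05). The intervals of neighbours in this order did not overlap, except those of Itgb2 and Itgb7. The 5′ libraries count 1 end of each molecule and capture can differ between genes, so the order describes detection and not transcript abundance. The pool held no cell type known to lack most integrins, so shares are set beside those of another T cell gate and not beside a negative cell type.

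Most cells with a transcript of a member held a single UMI of it. For Itga2 this was so in 94.6% of the cells with a UMI, for Itgae in 84.9%, for Itgax in 83.7%, for Itgal in 79.8%, for Itga4 in 76.6%, for Itgb7 in 75.0% and for Itgb2 in 73.6%. Itgb1 was the exception, at 46.7%. Its UMIs reached 44 in a single cell, and 87 cells with 10 or more held 11% of them, while no other member exceeded 8 UMIs in a cell. No UMI of any member was found in 5171 cells (40.3%), whose median depth was 879 UMIs, and 1 member was found in 3677 cells. Cells with 4 or more members numbered 448, 119 and 19 for 4, 5 and 6 members, and those with 6 had a median depth of 5729 UMIs. A beta chain alone was found in 30.9% of cells, an alpha chain alone in 8.18% and both in 20.5%. For the 8113 cells of 1000 or more UMIs, each reduced to 1000, Itgb1 was expected in 28.0% of cells, Itgb7 in 15.6%, Itgb2 in 15.4%, Itgal in 11.3%, Itga4 in 8.25%, Itgax in 2.10%, Itgae in 1.63% and Itga2 in 0.535%.

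Levels differed most between libraries for Itgb1, Itgax and Itga2. Over all cells of a library, Itgb1 stood at 3.27, 0.771, 2.98, 7.18, 5.43 and 5.23 UMIs per 10000 UMIs in libraries 1 to 6, a 9.31-fold range from library 2 to library 4. Libraries 2 and 4 were separated by their counting intervals from their neighbours in that order, while libraries 1 and 3 overlapped, as did 5 and 6. Itgax, over all cells, stood at 0.102, 0.00944, 0.0574, 0.388, 0.310 and 0.267, with 3 UMIs in library 2. Libraries 4, 5 and 6 overlapped one neighbour to the next and lay above the other 3. Itga2 ran from 0.00944 in library 2, also with 3 UMIs, to 0.101 in library 4. Every neighbouring pair of Itga2 levels overlapped, while the intervals of libraries 2 and 4 lay apart.

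The other alpha chains ran in different orders. Itgae was highest in library 1 (0.339 UMIs per 10000 over all cells) and lowest in library 5 (0.0839), a 4.04-fold range. Each neighbouring pair overlapped, while the intervals of libraries 1 and 5 lay apart. Itga4 was also highest in library 1 (1.35) and lowest in library 2 (0.510), 2.65-fold apart. Itgal ran from 0.572 in library 2 to 1.51 in library 4, 2.63-fold apart. The narrowest ranges were those of Itgb2, from 1.14 in library 2 to 2.09 in library 4 (1.83-fold), and of Itgb7, from 1.29 in library 3 to 2.14 in library 4 (1.66-fold). In the CD8+ gate alone, Itgb1 still ran 10.1-fold, from 0.587 in library 2 to 5.92 in library 4, and Itgb2 2.16-fold. Libraries can differ in treatment, animal, cell states and depth together, and these cannot be told apart.

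**Figure D1:**
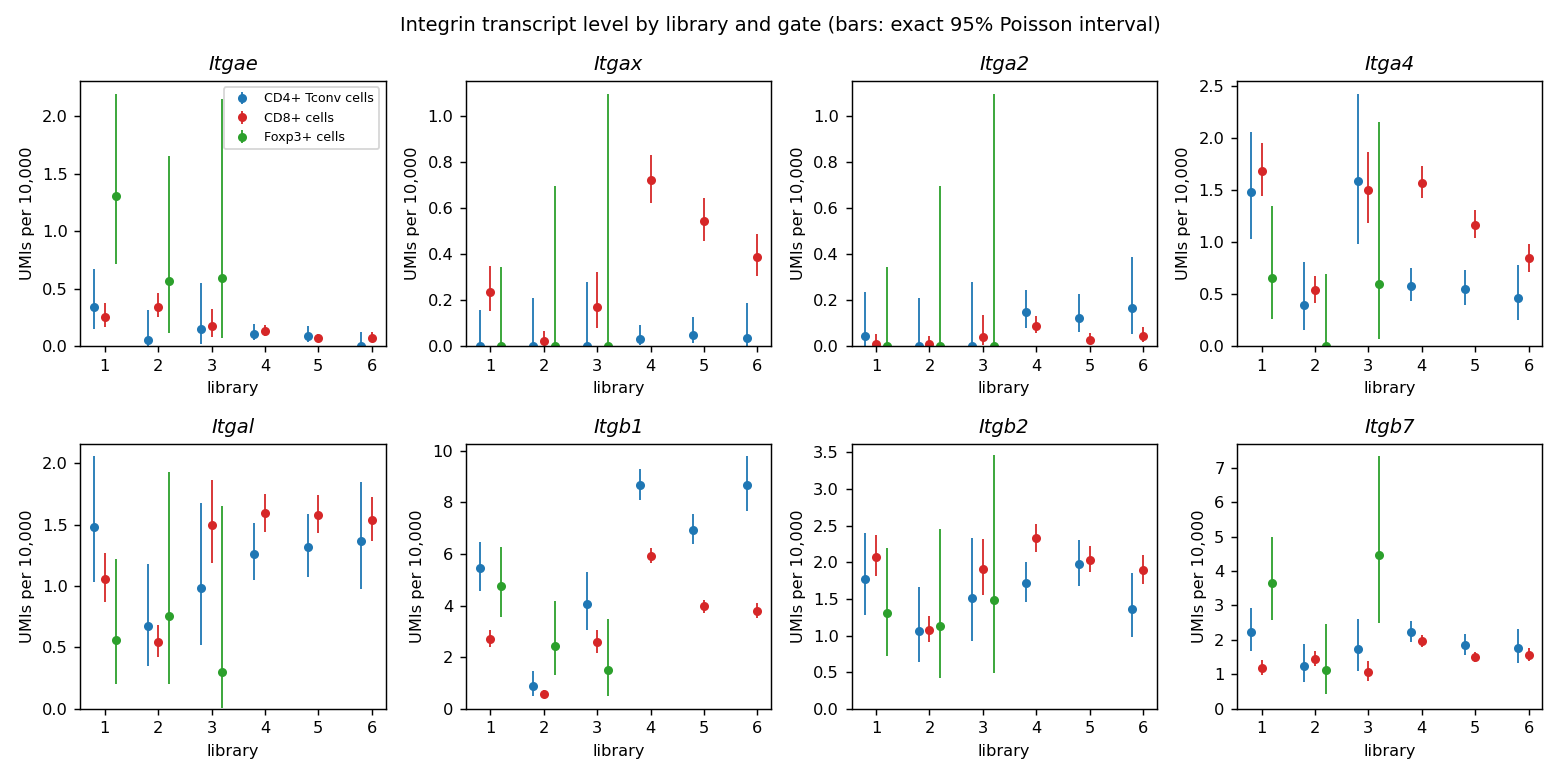
Level of each integrin gene in UMIs per 10,000 UMIs (vertical axis, linear, 1 panel per gene) against library (horizontal axis), for CD4+ Tconv cells (blue), CD8+ cells (red) and Foxp3+ cells (green, libraries 1 to 3 only, since library 6 held 1 such cell), with exact 95% Poisson intervals. Itgax points of CD8+ cells lie above those of CD4+ Tconv cells in every library, Itgb1 points lie below them, and library 2 is lowest for Itgb1 in both.

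The 2 lineages differed in Itgax, Itga4, Itgb1 and Itga2. CD8+ cells held more Itgax and Itga4 and less Itgb1 and Itga2 than CD4+ Tconv cells of the same library, by a common ratio over libraries of more than 1.5 in either direction. This was 4 of the 8 members, each with at least 50 UMIs over both populations, against 14.9% of the 8986 genes tested in either direction. By direction, 2 members were higher, against 6.61% of all genes tested, and 2 were lower, against 8.27%. The median log2 ratio was 0.24 over the members and -0.04 over all genes tested. A 2-fold limit kept 2 members, Itgax and Itga2, and 4 members passed 1.5-fold with each library left out in turn.

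Itgax showed the widest difference. In CD8+ cells its level was 0.236, 0.0229, 0.170, 0.719, 0.543 and 0.389 UMIs per 10000 in libraries 1 to 6. In CD4+ Tconv cells it was 0, 0, 0, 0.0314, 0.0496 and 0.0333, from 0, 0, 0, 3, 4 and 1 UMIs. CD8+ cells were above CD4+ Tconv cells in 6 of 6 libraries, and the highest CD4+ level exceeded the CD8+ level of library 2 alone. With 433 UMIs against 8, the common ratio was 16.6 (8.32 to 38.6), at percentile 99.9 of all genes tested. The share of cells with a UMI was 7.96% in the CD8+ gate (7.19 to 8.79, median depth 1708 UMIs) and 0.664% in the CD4+ Tconv gate (0.287 to 1.3, median depth 1622 UMIs). Thinned to 1000 UMIs the shares were 3.97% and 0.343%. No Itgax UMI was found in the 97 Foxp3+ cells, which allows a level of up to 0.153 per 10000 by a floor of 3 UMIs. Of the 416 cells with an Itgax UMI, 358 (86.1%) fell in the CD8+ gate and 37 carried no gating UMI.

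Because CD11c is a standard marker of dendritic cells, markers of other cell types were counted in the same cells. A T cell marker was found in 414 of the 416 Itgax cells. Of a list of 16 myeloid and dendritic markers, 9 had a row in the count table, with Cst3 by far the most abundant, and Lyz2, Adgre1, C1qa, C1qb, C1qc, Flt3 and Clec9a had none. One of these 9 markers was found in 115 Itgax cells against 128 expected within library and depth decile, a ratio of 0.898 (0.742 to 1.08). The summed level of the list ran from 0.511 to 1.5 per 10000 over the libraries in CD8+ cells and from 0.618 to 1.51 in CD4+ Tconv cells, so these ranges overlapped nearly in full. Of the natural killer markers Ncr1, Klrb1c and Klre1, at least 1 was found in 47 Itgax cells against 26.5 expected, a ratio of 1.77 (1.3 to 2.36). Their summed level ran from 0.0381 to 0.563 in CD8+ cells and from 0 to 0.0755 in CD4+ Tconv cells, and their part in the Itgax difference was not tested. Without cells bearing a myeloid, B cell or melanoma marker the log2 ratio of Itgax was 3.75, beside 4.05 with them.

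Itga4 was 1.90 times as high in CD8+ as in CD4+ Tconv cells (1.62 to 2.24, 1184 against 176 UMIs). Its level in CD8+ cells was 1.68, 0.534, 1.5, 1.56, 1.17 and 0.841 UMIs per 10000 in libraries 1 to 6. In CD4+ Tconv cells it was 1.48, 0.393, 1.58, 0.575, 0.546 and 0.466. The CD8+ level was higher in 5 of 6 libraries, but the intervals of libraries 1, 2 and 3 overlapped and those of library 6 did too, while those of libraries 4 and 5 lay apart. Without library 4 the log2 ratio was 0.63, beside 0.93 with it.

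Itgb1 ran the other way. Its level in CD4+ Tconv cells was 5.45, 0.898, 4.08, 8.68, 6.93 and 8.68 UMIs per 10000 in libraries 1 to 6, and in CD8+ cells 2.71, 0.587, 2.57, 5.92, 3.97 and 3.80. CD8+ cells were lower in 6 of 6 libraries, with a common ratio of 0.593 (0.560 to 0.628, 3750 against 1849 UMIs). The ranges over libraries still overlapped, since library 2 was low in both lineages. Itga2, which pairs with beta 1, was at 0.418 of the CD4+ Tconv level (0.254 to 0.695, 42 against 30 UMIs) and lower in 4 of 6 libraries. The interval of Itga2 reached past the 1.5-fold limit, and its levels lay at or below 0.166 per 10000 in every library and both lineages.

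The remaining 4 members stayed within 1.5-fold. Itgb2 was 1.21 times as high in CD8+ cells (1.09 to 1.34) and higher in 6 of 6 libraries. Itgal was 1.15 times as high (1.02 to 1.31, 4 of 6 libraries). Itgb7 was at 0.822 (0.743 to 0.911) and lower in 5 of 6 libraries. The ratio of Itgae was 1.25 (0.827 to 1.96, 145 against 28 UMIs), an interval that held both directions. Its CD8+ level was 0.255, 0.343, 0.170, 0.130, 0.0684 and 0.0692 in libraries 1 to 6, so that libraries 5 and 6 were lowest and libraries 1 and 2 highest.

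**Figure D2:**
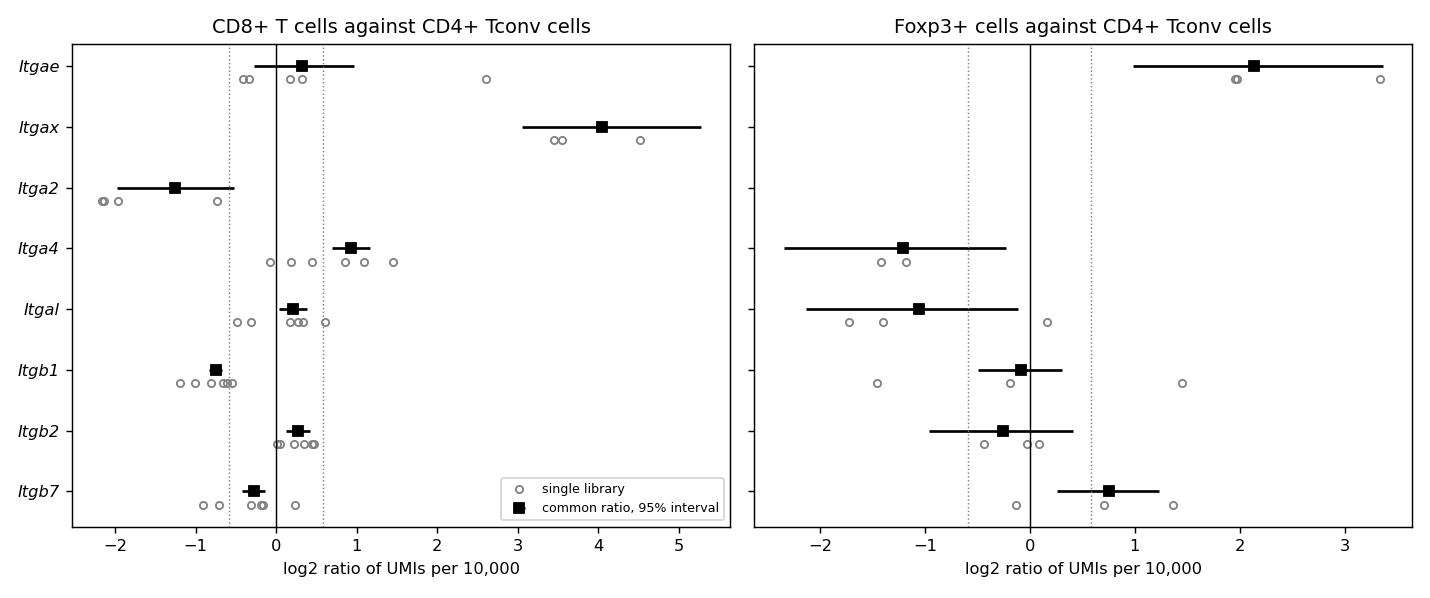
Log2 ratio of UMIs per 10,000 (horizontal axis) for each integrin gene (vertical axis), of CD8+ T cells (left) and Foxp3+ cells (right) against CD4+ Tconv cells. Black squares are common ratios over libraries with exact 95% counting intervals, gray circles are single libraries where both populations had 10 cells and a UMI, and dotted lines mark 1.5-fold. Itgax has the highest ratio on the left and no square on the right, where the Foxp3+ cells lacked UMIs of Itgax and of Itga2, and Itgae is highest on the right.

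Foxp3+ cells held more Itgae and Itgb7, which encode CD103 and the beta chain it pairs with, than CD4+ Tconv cells. Itgae stood at 1.31, 0.565 and 0.594 UMIs per 10000 in the Foxp3+ cells of libraries 1, 2 and 3, and at 0.338, 0.0561 and 0.151 in their CD4+ Tconv cells. Foxp3+ cells were higher in 3 of 3 libraries, at a common ratio of 4.39 (1.97 to 10.3). There were 19 against 11 UMIs in libraries that held cells of both kinds, too few for the test across all genes. In libraries 1, 2 and 3 these were 14, 3 and 2 UMIs in Foxp3+ cells and 8, 1 and 2 in CD4+ Tconv cells. The intervals of the populations lay apart in library 1 alone. In libraries 2 and 3 they overlapped, and no count exceeded the floor of 3 UMIs. The Foxp3+ UMIs of library 3 came from 1 cell. A UMI of Itgae was found in 14 of 97 Foxp3+ cells, or 14.4% (8.12 to 23.0, median depth 1532 UMIs), and in 1.99% of CD4+ Tconv cells (1.28 to 2.95). Thinned to 1000 UMIs, the shares were 9.34% and 1.21%. The CD4+ Tconv shares pool all 6 libraries, while nearly all Foxp3+ cells came from libraries 1, 2 and 3. In those libraries, thinned to 1000 UMIs, the Foxp3+ shares were 11.5%, 7.56% and 6.13%. The CD4+ Tconv shares there were 4.48%, 0.751% and 1.81%. Without cells bearing a myeloid, B cell or melanoma marker the log2 ratio fell from 2.13 to 1.27. Of the 1921 cells of the pool with a myeloid or dendritic marker, 1710 held Cst3. The ratio rested on 19 and 11 UMIs before any cell was left out. The myeloid and dendritic list stood at 0.565 to 2.97 per 10000 in the Foxp3+ cells of these libraries, beside 0.618 to 1.51 in CD4+ Tconv cells, and its part in the Itgae ratio beyond these values was not tested.

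Of the members, 5 had at least 50 UMIs over both populations and 3 passed 1.5-fold, against 22.7% of 2550 genes tested (13.2% higher and 9.45% lower). Itgb7 was 1.68 times as high in Foxp3+ cells (1.20 to 2.34), at 3.65, 1.13 and 4.46 per 10000 in libraries 1, 2 and 3 beside 2.24, 1.24 and 1.74 in CD4+ Tconv cells. It was higher in 2 of 3 libraries and slightly lower in library 2, and the counting intervals of the populations overlapped in all 3. Itga4 was at 0.433 (0.198 to 0.853, 10 against 77 UMIs) and lower in 3 of 3 libraries. Itgal was at 0.482 (0.228 to 0.927, 11 against 101 UMIs) and lower in 2 of 3. Itgb1 (0.941, 0.710 to 1.24) and Itgb2 (0.839, 0.512 to 1.33) stayed within 1.5-fold with intervals that held 1. Itga2 had no UMI in Foxp3+ cells and 6 in the CD4+ Tconv cells compared, so no fold is given.

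The Foxp3+ values rest on few cells. Leaving out library 1 brought Itgal to a log2 ratio of -0.53, within 1.5-fold, beside -1.05 with it, and leaving out library 3 brought Itgb7 to 0.57, also within 1.5-fold, beside 0.75. Between 2 and 3 members passed 1.5-fold with a library left out, and 2 did without cells bearing a marker of another cell type, where Itgb7 stood at 0.57. With 2 gating UMIs required, 20 Foxp3+ and 261 CD4+ Tconv cells remained, the directions of Itgal (1.17) and Itgb7 (-0.17) turned, Itgb1 moved to -1.54 and Itgae to 4.13. With libraries pooled, Itgb1 stood at -0.92, beside -0.09 within libraries.

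CD8+ cells were split by the transcripts of Cxcr6 and Mki67. Cxcr6 encodes a chemokine receptor of tissue-resident and effector T cells. In CD8+ cells with against without a Cxcr6 UMI (1078 and 3419 cells), 0 of 7 members passed 1.5-fold, against 5.16% of all genes tested (2.68% higher and 2.49% lower). Itgal was 1.18 times as high (1.06 to 1.33) and higher in 6 of 6 libraries, and Itgax 1.25 times as high (1.03 to 1.53) and higher in 5 of 6. The cells with Cxcr6 were deeper, at a median of 2595 against 1510 UMIs. In CD8+ cells with against without Mki67, a marker of dividing cells (403 and 4094 cells), 0 of 7 members passed, against 22.3% of all genes tested (13% higher and 9.33% lower). Itga4 was at 0.796 (0.669 to 0.942) and lower in 4 of 5 libraries. Itgax was at 0.777 (0.589 to 1.01), an interval that held 1, and lower in each of the 5 libraries in which both populations had 10 cells.

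CD4+ Tconv cells with a Ccr8 UMI held less Itgb1. Ccr8 encodes a chemokine receptor that the study used to mark a Tconv subset, and 117 cells with it were compared with 1088 without, at median depths of 3069 and 1516 UMIs. Of 5 members tested, 1 passed 1.5-fold, a share near the 19.5% of 5143 genes tested that did (6.73% higher and 12.8% lower). This member was Itgb1, at 0.596 (0.513 to 0.689). Its level in Ccr8-positive cells was 2.95, 5.46, 4.56 and 8.15 per 10000 in libraries 1, 4, 5 and 6, the ones with 10 or more Ccr8-positive cells, beside 6.14, 9.67, 7.29 and 8.73 in Ccr8-negative cells. It was lower in 4 of 4 libraries, though only slightly in library 6. Itgb7 was at 0.746 (0.571 to 0.963), Itgal at 0.830 (0.595 to 1.14), Itga4 at 0.723 (0.447 to 1.12) and Itgb2 at 0.986 (0.756 to 1.27). Itga4 (-0.79) and Itgb7 (-0.63) also passed 1.5-fold on the log2 scale without library 1, and Itgal did without library 4 (-0.61).

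Of the 6 known alpha and beta pairs, 4 were found in the same cell more often than their separate frequencies gave, by intervals above 1, and 2 had intervals that held 1. The number expected was computed within library and depth decile, since deeper cells hold more of every transcript. The median gene found in at least 1% of cells also lay above 1. Its log2 ratio was 0.02 with Itgae, 0.03 with Itgax, 0.06 with Itga4 and 0.05 with Itgal. Beside these, Itgae with Itgb7 stood at 0.53 and Itgax with Itgb2 at 0.21. Itga4 with Itgb1 stood at 0.13 and Itgal with Itgb2 at 0.16. The share of all genes with an interval above 1 was not counted. Itgae and Itgb7, which encode CD103 and the beta chain it pairs with, had the highest ratio of the 6 known pairs. With 118 cells found against 81.6 expected, the ratio was 1.45 (1.20 to 1.73). It was above 1 in 6 of 6 libraries, at 1.24, 1.3, 1.2, 1.54, 1.69 and 1.72. Of the Itgae cells, 40.4% held Itgb7, and 4.26% of Itgb7 cells held Itgae. Among genes found in at least 1% of cells, Itgb7 was at percentile 92.2 of those found with Itgae. The pair was at 1.37 within CD8+ cells (1.001 to 1.84, 45 cells), 1.61 within CD4+ Tconv cells (0.880 to 2.70, 14 cells) and 1.10 within Foxp3+ cells (0.505 to 2.10, 9 cells).

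The other partner pairs lay closer to 1. Itga2 with Itgb1, the collagen receptor, was found in 79 cells against 63.4 expected (1.25, 0.987 to 1.55). Itgax with Itgb2 was found in 195 against 168 (1.16, 1.002 to 1.33) and Itgal with Itgb2, the LFA-1 pair, in 823 against 739 (1.11, 1.04 to 1.19). Within CD8+ cells Itgax with Itgb2 stood at 1.10 (0.940 to 1.28), an interval that held 1. By library it stood at 1.72, 1.76, 1.48, 1.24, 0.956 and 1.12. Itgal with Itgb2 was above 1 in 6 of 6 libraries, at 1.11, 1.33, 1.35, 1.10, 1.05 and 1.15. Itga4 with Itgb1 was found in 727 against 663 (1.10, 1.02 to 1.18) and Itga4 with Itgb7 in 442 against 437 (1.01, 0.920 to 1.11). The intervals of Itga2 with Itgb1 and Itga4 with Itgb7 held 1.

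None of the 6 partner pairs passed 1.5-fold. Beside that count stand the shares past 1.5-fold among genes found in at least 1% of cells. They were 6.03% with Itgae, 3.02% with Itgax, 10.7% with Itga2, 0.444% with Itga4, 0.0493% with Itgb7 and 0% with Itgal, Itgb1 and Itgb2. The 9 alpha and beta combinations that are not known pairs ran from 0.913 to 1.46. The highest of them was Itga2 with Itgb7 (59 cells against 40.4, 1.46, 1.11 to 1.88), as high as Itgae with Itgb7. Itgae with Itgb1 followed (1.18, 0.989 to 1.41). Itga4 with Itgb2 stood at 1.11 (1.01 to 1.20), beside 1.10 and 1.01 for Itga4 with its own partners Itgb1 and Itgb7. Ratios above 1 were found both for known heterodimers and for other combinations.

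Chains that do not pair with each other, such as 2 alpha chains, were counted in the same way. Itgax and Itga4 were found together in 127 cells against 78.6 expected (1.62, 1.35 to 1.92), a ratio past 1.5-fold and at percentile 99.9 of genes found with Itga4. Both genes were higher in CD8+ than in CD4+ Tconv cells. Lineage was not among the strata, and its part in this ratio was not tested. Itgae and Itga4, 2 alpha chains that share beta 7 as a partner, were found together in 22 cells against 46.0 (0.479, 0.300 to 0.725), at percentile 2.81 of genes found with Itgae. Of the Itgae cells 7.53% held Itga4, beside 12% of all cells. Itga4 and Itgal stood at 1.17 (1.06 to 1.28) and the beta chains Itgb1 and Itgb7 at 1.12 (1.06 to 1.18), while Itgb2 with Itgb7 stood at 1.0 (0.938 to 1.07) and with Itgb1 at 1.03 (0.975 to 1.09).

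**Figure D3:**
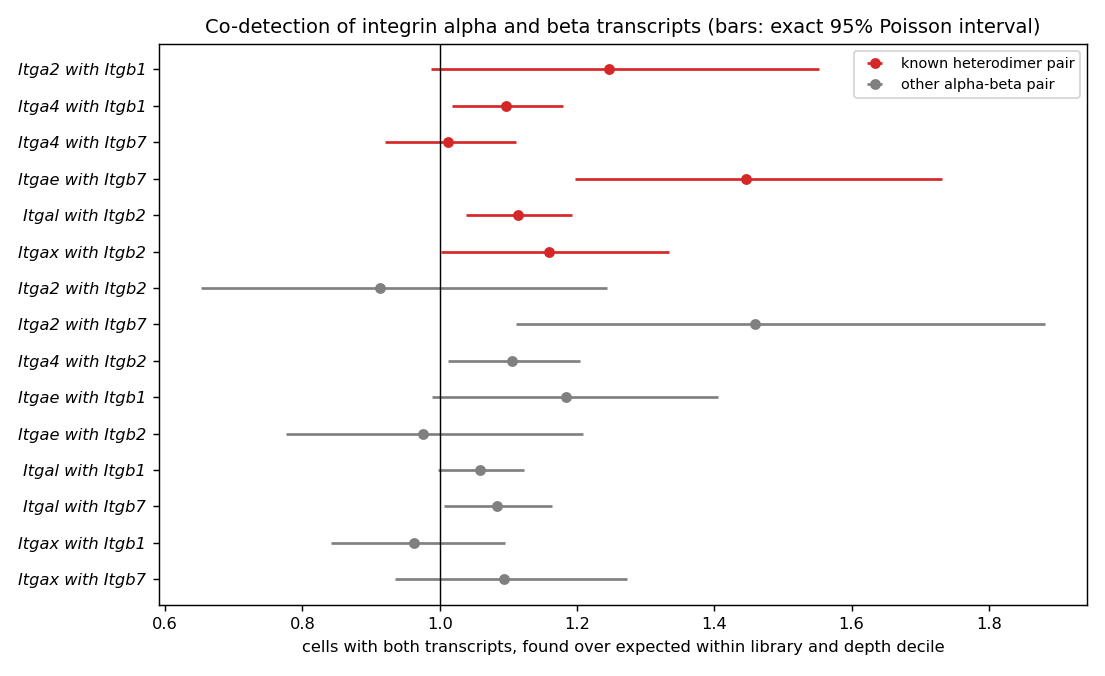
Cells with both transcripts over the number expected within library and depth decile (horizontal axis) for the 15 alpha and beta pairs (vertical axis), known heterodimer pairs in red and others in gray, with exact 95% Poisson intervals. The red pairs run from 1.01 for Itga4 with Itgb7 to 1.45 for Itgae with Itgb7, and the gray pair Itga2 with Itgb7 reaches 1.46.

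Members differed in the T cell state genes found beside them. Itgax was found with Gzmb, a cytotoxic granule protease, in 301 cells against 197 expected (1.53, 1.36 to 1.71) and with the chemokine gene Ccl5 in 372 against 248 (1.5, 1.35 to 1.66). It was found with Il13, a type 2 cytokine gene, in 2 cells against 19.8 (0.101, 0.0122 to 0.365), with Ccr8 in 18 against 35.0 (0.514, 0.305 to 0.813) and with Tcf7, a factor of naive and memory T cells, in 36 against 54.0 (0.667, 0.467 to 0.924). Itga4 showed the same signs in smaller size, at 1.38 with Ccl5 (1.3 to 1.47), 1.35 with Pdcd1 (1.21 to 1.49), 1.3 with Gzmb (1.2 to 1.4) and 0.532 with Il13 (0.333 to 0.805). These numbers pool both lineages, between which Itgax and Itga4 differed, and lineage was not among the strata.

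Itgae and Itgb7 stood beside other genes. Itgae was found with Foxp3 in 15 cells against 6.14 (2.44, 1.37 to 4.03), with Zfp683, which encodes the residency factor Hobit, in 11 against 5.57 (1.98, 0.986 to 3.54), and with Gata3 in 79 against 54.0 (1.46, 1.16 to 1.82). With Ccl5 it was found in 99 against 138 (0.719, 0.584 to 0.875). TGF-β is known to induce CD103, and the receptor gene Tgfbr1 was found in 3 Itgae cells against 6.04 (0.496, 0.102 to 1.45), an interval that held 1. Tgfbr2 stood at 0.813 and Smad7 at 1.0 with Itgae. Itgb7 was found with Foxp3 in 50 against 27.6 cells (1.81, 1.35 to 2.39), at percentile 100 against genes found in at least 1% of cells. With Gata3 it stood at 1.16 (1.08 to 1.25). The Foxp3 numbers largely repeat the Foxp3+ comparison above, since 14 cells of that gate held Itgae and 41 held Itgb7. The gate held 97 cells, and ratios of genes found in few cells spread widely, so the percentile is uncertain. All these numbers pool both lineages, and lineage was not among the strata.

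Itgb1 was found less often than expected with Ccr7, which encodes a lymph node homing receptor (275 against 357 cells, 0.771, 0.683 to 0.868). This was at percentile 0.185 of genes found in at least 1% of cells. With Gata3 it stood at 1.16 (1.10 to 1.23). Itgal and Itgb2 stayed between 0.802 and 1.24 with all 22 state genes. Itga2, found in 112 cells, gave intervals that held 1 for all 22 state genes. These numbers also pool both lineages, between which Itgb1 differed, and lineage was not among the strata.

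**Figure D4:**
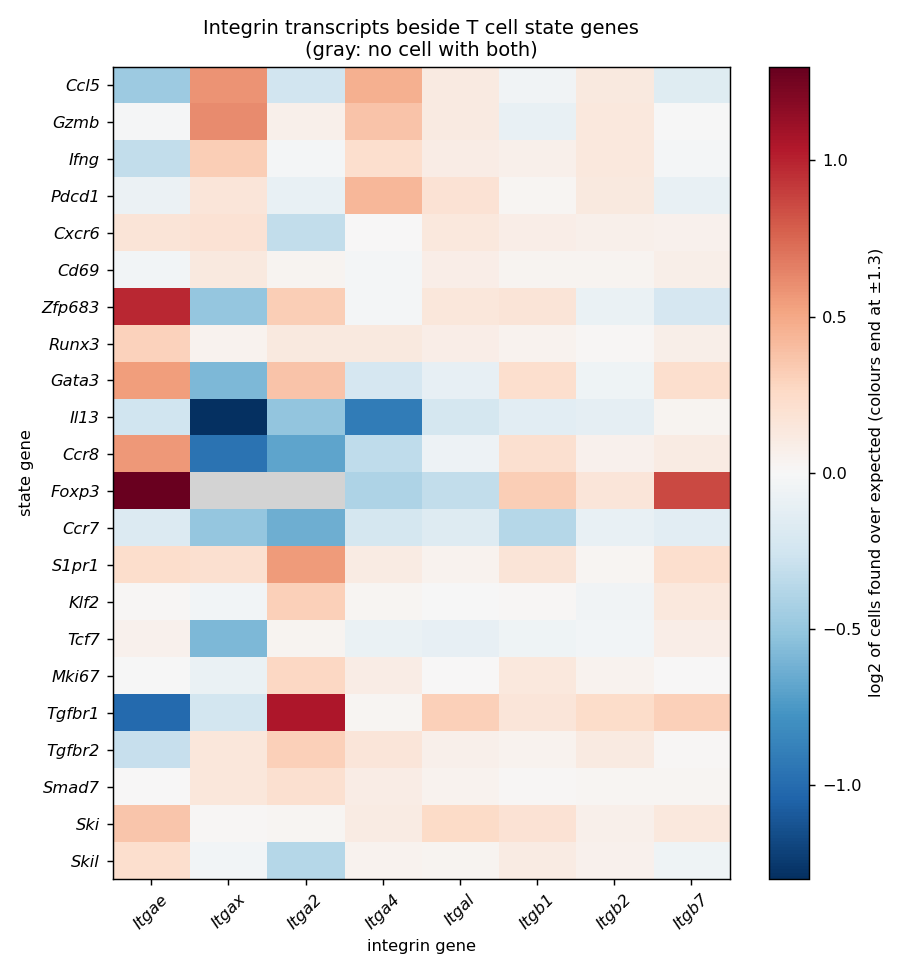
Log2 of cells found over expected (colour, red above and blue below 0) for 22 T cell state genes (rows) beside the 8 integrin genes (columns), over all 12818 cells within library and depth decile, gray where no cell held both. Itgax and Itga4 are red with Ccl5 and Gzmb and blue with Il13, and Itgae and Itgb7 are red with Foxp3.

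The genes most like each member in detection were found by the phi coefficient over the 12818 cells within library and depth decile, given as a description. Itgax had the highest values, with Gzma (0.215), Klrc1 (0.175) and Ccl4 (0.165), which encode a granzyme, an NKG2 receptor chain and a chemokine. Gzma was found in 333 of the 416 Itgax cells, against 179 expected. Itga4 was nearest to Ccl5 (0.167), Gzmk (0.143) and Gzma (0.122). Itgb1 was nearest to Ifitm2 (0.131), S100a6 (0.115) and Lgals1 (0.113), and Itgb7 to Ifitm2 (0.0836), Emp3 (0.0782) and Ahnak (0.0777). Itgb2 was nearest to Nkg7 (0.0768), Ccl5 (0.0626) and Gzmb (0.0620), and Itgal to Slamf7 (0.0624), Nkg7 (0.0574) and Fyn (0.0549). Itgae was nearest to Pxdc1 (0.0969), Capg (0.0873) and Tmem176a (0.0812). For Itga2 the leading genes Arrdc2 (0.0586), Dolpp1 (0.0579) and Gstm5 (0.0540) rested on 10 or 11 shared cells. The coefficients are low throughout, cells of 1 library share its depth and makeup, and lineage was not among the strata.

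The other 15 integrin subunit genes were mostly scarce, and 4 reached 50 UMIs between the lineages. Itga1, a collagen receptor chain that pairs with beta 1, was 2.82 times as high in CD8+ as in CD4+ Tconv cells (1.91 to 4.34) and higher in 6 of 6 libraries. Itgav (0.572, 0.450 to 0.732) and Itgb3 (0.521, 0.427 to 0.637), which pair with each other, were lower in 6 of 6, and Itga6 did not pass 1.5-fold. Itga1 was also found with Itgax more often than expected, in 57 cells against 27.7 (2.06, 1.56 to 2.66), and with Itga4 in 91 against 66.0 (1.38, 1.11 to 1.69). Itgav was found with Itgax in 21 cells against 35.1 (0.598, 0.370 to 0.915). These co-detection numbers pool both lineages, between which these genes differed, and lineage was not among the strata. In Foxp3+ cells Itgav was 3.05 times as high as in CD4+ Tconv cells (1.75 to 5.33, 31 against 37 UMIs), higher in 3 of 3 libraries.

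Genes that act on integrins from within the cell were counted in the same comparisons. The list held 25 genes, such as the talin and kindlin genes Tln1 and Fermt3 and the Rap1 pathway genes. Between CD8+ and CD4+ Tconv cells 20 were tested and 0 passed 1.5-fold, beside 14.9% of all genes tested, with a median log2 ratio of 0.06. In Foxp3+ cells 16 were tested, beside 22.7% of all genes past 1.5-fold, and Tln1 was higher (1.58, 1.07 to 2.30) and Rap1a, Rassf5, Rasgrp2 and Evl were lower, at 0.665, 0.657, 0.529 and 0.481, these 4 each with an interval that held 1. In the Ccr8 split 5 of 20 were lower, beside 12.8% of all genes tested. Rasgrp2, an activator of Rap1, was at 0.405 (0.235 to 0.659). Of 10 integrin ligand genes 9 were in the table and 2 could be tested between the lineages, of which 0 passed 1.5-fold.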

How the data were processed

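Droplet libraries of TCRβ+ T cells were made with 5′ chemistry. The authors deposited raw UMI counts for genes by cells. Per the methods the authors mapped to mm10 and merged libraries with cell ranger, then analysed filtered cells in Seurat, while the submitters' processing notes list mm9 as the build. Whether antisense reads were counted was not given in the sources used here.

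Levels are UMIs per 10000 UMIs of the cells summed. Populations were compared within libraries by a common ratio (conditional maximum likelihood) with exact conditional 95% intervals, and a gene with at least 50 UMIs over both populations together counted as past the limit at 1.5-fold in either direction. Co-detection was compared with the number expected within library and depth decile, with exact Poisson intervals, and shares carry exact Clopper-Pearson intervals. Intervals and floors (3 counts) cover counting error only. The calculations used Python 3.11.15 with scipy 1.17.1, and were tested on simulated data. Gene positions came from GENCODE on GRCm38 and promoter sequences from RefSeq on GRCm38.p6. The members and gene lists were chosen with earlier results of these data known. Beside the members, named genes were other integrin subunits, activation and ligand genes, state genes and the 3 genes most like each member. A count test of PBS against DTx was not run, since 0 cells could be assigned. A state gene of the list and its comparisons are not reported here. Alternatives covered strata, folds, gates, filters, depth and each library left out, and leaving out shared barcodes was added after seeing the data.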

Additional observations from a re-analysis of the deposited data

How the results depend on the processing

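The count of members past 1.5-fold between CD8+ and CD4+ Tconv cells was 4 with depth quartiles, with libraries pooled, with 2 gating UMIs, without cells of other markers and without shared barcodes, and 2 at 2-fold. At 2-fold the count was 0 for the split by Ccr8. With libraries pooled the counts were 2 (Cxcr6) and 1 (Mki67), beside 0 within libraries. With each library left out they ran from 1 to 3 for Ccr8. In Foxp3+ cells with 2 gating UMIs the log2 ratios of Itgal (1.17) and Itgb7 (-0.17) reversed. The causes were not tested.

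Counts of all genes past 1.5-fold depended on the filter, which sets how many genes are tested. In the order CD8+ against CD4+ Tconv, Foxp3+ against CD4+ Tconv, CD8+ split by Cxcr6 and by Mki67, and CD4+ Tconv split by Ccr8, they were 1337, 578, 438, 1890 and 1003 at 50 UMIs. With no filter beyond 1 UMI they were 5230, 7247, 3992, 6114 and 6500. At 20 UMIs they were 2021, 1788 and 956 for the first 3 and 2203 for the split by Ccr8.

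Expected by library alone, without depth, co-detection on the log2 scale was 0.84 for Itgae with Itgb7, 0.53 for Itgax with Itgb2, 0.45 for Itgal with Itgb2, 0.26 for Itga4 with Itgb1 and 0.19 for Itga4 with Itgb7, beside 0.53, 0.21, 0.16, 0.13 and 0.02 with depth.

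With equal weight for each library the levels per 10000 UMIs were 0.347 for Itgax, 1.3 for Itgal, 3.26 for Itgb1 and 1.45 for Itgb7 in CD8+ cells, 0.841 for Itga4 and 5.79 for Itgb1 in CD4+ Tconv cells and 2.90 for Itgb1 in Foxp3+ cells. With each library left out, levels in CD8+ cells ran from 0.0262 to 0.0479 for Itga2, from 1.07 to 1.3 for Itga4, from 0.117 to 0.173 for Itgae, from 1.3 to 1.51 for Itgal, from 0.337 to 0.502 for Itgax, from 3.03 to 4.29 for Itgb1, from 1.82 to 2.09 for Itgb2 and from 1.43 to 1.61 for Itgb7. In CD4+ Tconv cells Itgb1 ran from 6.16 to 7.54, and in Foxp3+ cells Itgae ran from 0.565 to 1.12 and Itgb1 from 2.48 to 4.21.

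No paired analysis was possible because the columns name libraries and no samples, so no test had groups. Low counts limit the precision of the Foxp3+ values, which rest on 97 cells and 19 Itgae UMIs, and of Itga2, with 118 UMIs over the pool.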
